A study of Mus musculus with 27 samples.

Results

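The 10 genes described here are known from fat cells, and they were followed through thyroid tissue captured from mice. Ucp1 and Cidea are known from brown fat. Adipoq, Fabp4, Plin1, Cidec, Lpl, Pparg, Cfd and Adig are known from fat cells in general, white and brown. They were taken by symbol from 54532 gene rows, all 10 were found, and all 10 passed the filter on low counts in each of the 3 comparisons. The question was whether transcripts of brown fat and of fat cells in general differ between thyroid of exposed and non-exposed mice and between lesions and the tissue beside them.

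The series studied thyroid lesions that arise in mice after radiation. Tissue was cut from sections with a laser and its RNA was counted at the 3′ ends of transcripts in 27 libraries. NCT is normal thyroid of mice that were not exposed, NT is normal thyroid tissue of exposed mice that had abnormal tissue next to it, and PL is the proliferative lesion of the same exposed mice. Each group held 9 libraries, 6 from females and 3 from males, and NT and PL were paired by mouse, with the pair sharing its replicate number here. All mice are thus described by exposure and sex alone, and no dose, strain, age or genetic change is stated in the labels. NCT and NT came from different animals, so that exposure and any other difference between those animals cannot be told apart.

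White fat cells store triglyceride in a single large droplet, while brown fat cells hold many small droplets and burn fatty acids to make heat. The uncoupling protein that Ucp1 encodes lets protons back across the inner mitochondrial membrane without making ATP. Brown fat in mice lies between the shoulder blades and also in the neck, and white and brown fat share most of the genes that take up, bind and coat lipid. In tissue pieces such as these, fewer fat cells and less RNA per fat cell cannot be told apart.

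Libraries held 2923851 to 14148601 counts. Thyroid tissue was present in every library, with Tg, the gene of thyroglobulin, between 9736 and 60593 CPM (counts scaled to a common library size). Transcripts known from elsewhere were high in a few libraries. The gene of parathyroid hormone, Pth, exceeded 2000 CPM in 5 of them, NCT replicates 5 and 8, NT replicates 7 and 9 and PL replicate 2. NCT replicate 9 had the fewest counts, held Lipf at 9970 CPM and Lyz2 at 16823 CPM, and took 20.02% of its counts from mitochondrial genes. NCT replicate 6 took 20.3%, and the other 25 libraries took 8.35% to 14.1%. NCT replicates 6 and 9 are both males.

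Ucp1 (chromosome 8, 83290352 to 83298452, plus strand of GRCm38) was low in most libraries of exposed mice and high in all 9 of non-exposed mice. In NCT its level was 70.0 CPM in the lowest library, 102 in the median and 684 in the highest. In NT the same 3 values were 2.61, 12.7 and 104 CPM, and in PL they were 1.40, 11.9 and 125 CPM. Of the exposed mice, only replicate 4 in NT (104 CPM) and replicates 4 and 5 in PL (106 and 125 CPM) came above the lowest NCT library, so that the groups overlapped through these libraries. The mean was 212 ± 203 CPM (SD, n = 9) in NCT, 7.26 times that of NT and 6.55 times that of PL. Without NCT replicates 6 and 9 it was 125 ± 75.4 CPM (SD, n = 7), 4.28 times that of NT and 3.86 times that of PL.

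Cidea, whose product sits on lipid droplets of brown fat cells, spread over its groups in a similar order. It lies on chromosome 18 (67343604 to 67367785, plus strand) and overlaps B430212C06Rik on the other strand, which had at most 21 counts in a library. Its lowest, median and highest levels were 16.6, 45.6 and 373 CPM in NCT, 5.38, 11.4 and 39.9 CPM in NT and 0.74, 5.22 and 75.1 CPM in PL. The NCT libraries with the most Cidea were replicates 9 (373 CPM) and 6 (349 CPM), and the next was replicate 5 at 101 CPM. In NT and PL the highest levels were again those of mice 4 and 5.

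The genes secreted or used by all fat cells separated the groups less. Adipoq, which encodes the hormone adiponectin (chromosome 16, 23146536 to 23158028, plus strand), had its lowest, median and highest levels at 35.8, 59.0 and 271 CPM in NCT. They were 12.8, 31.6 and 66.1 CPM in NT and 1.92, 20.6 and 79.0 CPM in PL. NT replicates 3, 4, 5 and 9 and PL replicates 4, 5 and 6 lay above the lowest NCT library. Cfd, the gene of the complement protease adipsin (chromosome 10, 79890853 to 79892655, plus strand), ran from 138 to 705 CPM in NCT, from 52.9 to 314 CPM in NT and from 3.70 to 344 CPM in PL. Its medians of 189 and 178 CPM in NCT and NT lay close together, against 80.6 CPM in PL.

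Genes of lipid uptake were measured with the most counts. Lpl, lipoprotein lipase, which frees fatty acids from lipoproteins at the vessel wall (chromosome 8, 68880491 to 68907448, plus strand), was at 234, 307 and 992 CPM as the lowest, median and highest in NCT. In NT it was at 139, 218 and 270 CPM and in PL at 55.8, 223 and 321 CPM. It varied least of the 10 genes among NT libraries, with an SD of 19.5% of the mean. Fabp4, a fatty acid carrier of the cytosol (chromosome 3, 10204088 to 10208576, minus strand), was at 171, 610 and 2842 CPM in NCT, at 67.1, 168 and 530 CPM in NT and at 16.04, 138 and 865 CPM in PL. For both genes the highest NCT library lay far above the highest of NT and PL, yet the groups overlapped. The highest PL library lay above the NCT median, at 321 against 307 CPM for Lpl and 865 against 610 CPM for Fabp4.

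The lipid droplet genes followed. Plin1, the coat protein that guards the droplet against lipases (chromosome 7, 79720218 to 79732903, minus strand), was at 29.8, 49.3 and 261 CPM in NCT, 4.38, 17.3 and 58.5 CPM in NT and 0.74, 11.9 and 69.7 CPM in PL. Cidec, which fuses droplets (chromosome 6, 113424634 to 113435760, minus strand), was at 17.3, 29.8 and 132 CPM in NCT, 3.59, 11.5 and 33.8 CPM in NT and 0.15, 7.30 and 49.1 CPM in PL. The lowest PL value of Cidec rests on 2 counts in replicate 9.

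Pparg and Adig had the fewest counts. Pparg encodes the receptor that drives fat cell formation (chromosome 6, 115360951 to 115490399, plus strand) and overlaps Gm44079, which had no count. It was at 4.55, 9.00 and 32.1 CPM in NCT, 1.21, 4.37 and 10.3 CPM in NT and 1.74, 4.47 and 33.3 CPM in PL, on 11 to 175 counts a library. The highest PL library, replicate 4, was far from the next one at 6.09 CPM. Adig, adipogenin, a small membrane protein of fat cells (chromosome 2, 158502612 to 158508198, plus strand), was at 3.93, 7.51 and 19.7 CPM in NCT. In NT it was at 0.40, 2.53 and 3.99 CPM, and in PL it ran from 0 to 6.69 CPM with a median of 1.82. PL replicate 9 had 0 counts of Adig, where up to 3 counts in 12055026 would still be allowed by counting error.

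The same few libraries led for most of the 10 genes. NCT replicate 9 was highest in its group for 9 of the 10, all but Adig. NT replicate 5 was highest for the 7 general genes other than Pparg, and NT replicate 4 for both brown genes. PL replicate 5 was highest for 7 of the 10 and PL replicate 9 lowest for 8 of the 10, all but Lpl and Pparg. NCT replicate 9 is also the library with the Lipf and Lyz2 transcripts, and their part in its fat gene levels was not tested.

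**Figure D1:**
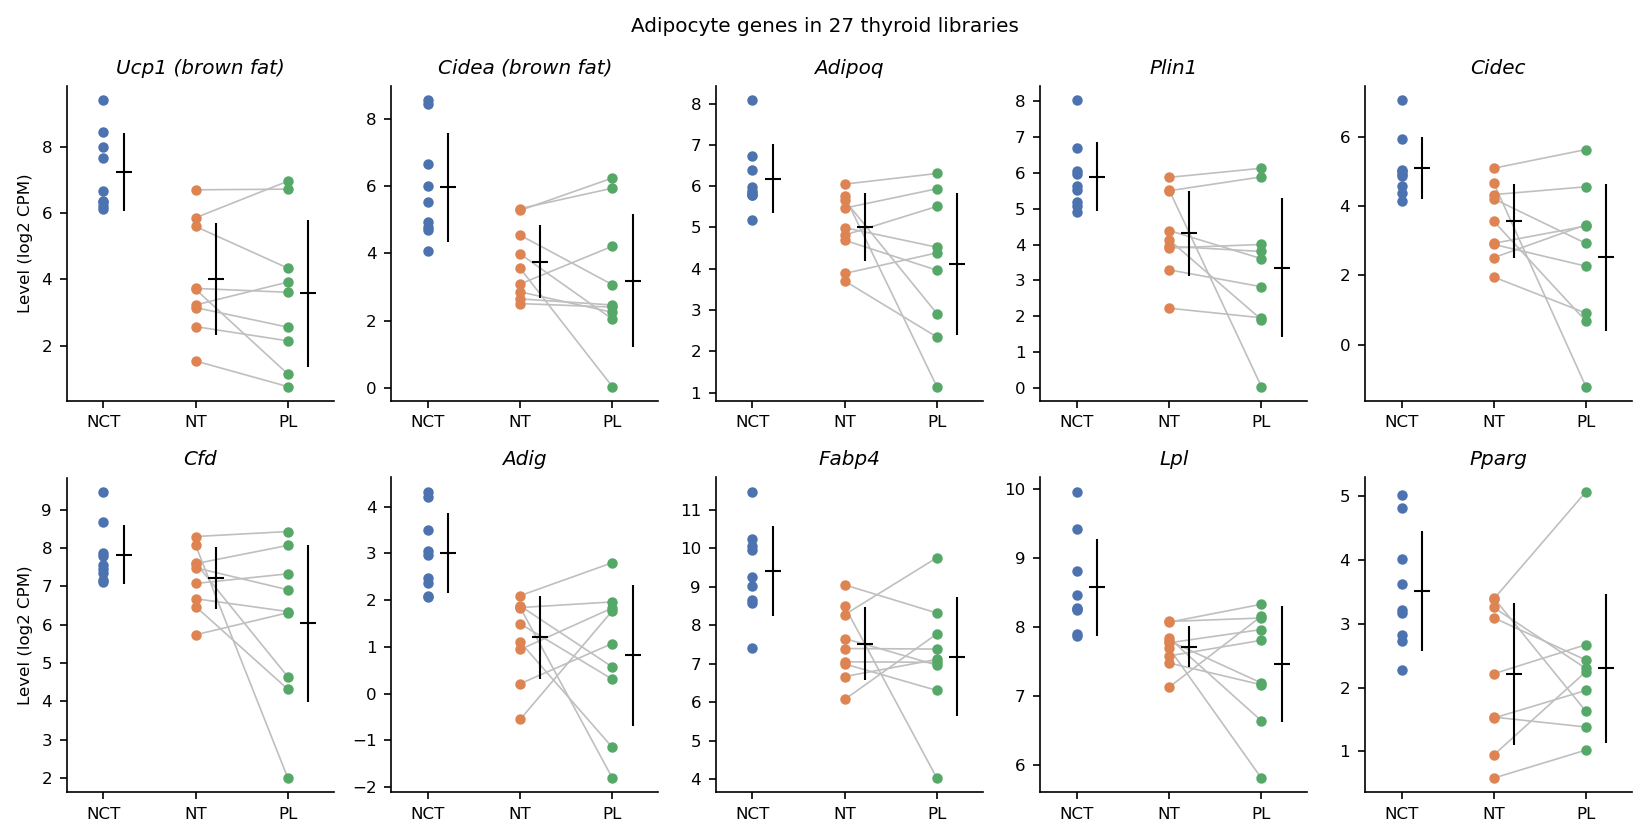
Level of each of the 10 genes in every library on the log2 CPM scale (vertical axis, prior count 2), by group (NCT, NT and PL, 9 libraries each). Grey lines join the NT and PL libraries of a mouse, and black bars show the mean and SD. In the Ucp1 panel the points of NT and PL lie lower than the lowest NCT point except for NT replicate 4 and PL replicates 4 and 5, at 104 to 125 CPM.

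The DNA around the start sites of 3 of these genes is shown. Ucp1 stands for the brown genes and Adipoq for the general ones. Adig is the only gene of the 10 that passed in the main edgeR fits of the comparisons below. RefSeq windows on GRCm38.p6 of 250 bases before to 50 after the start were used for 7 of the 10 genes, with 10 windows in all. No window of Cidea, Fabp4 or Lpl was searched, whether or not one exists. Ucp1 was thus the only brown gene covered, and motifs near the start of Cidea were not tested. Capitals mark AGGTCA, the half-site of nuclear receptors such as the one that Pparg encodes, CCAAT (the CCAAT box) and TATAAA (the TATA box), each searched on both strands, so that ATTGG is CCAAT on the other strand. Each is printed 5′ to 3′ on the strand of its gene. The first lies at chr8:83290098-83290397, the next at chr16:23146286-23146585 and the last at chr2:158502362-158502661, all on the plus strand.
Ucp1: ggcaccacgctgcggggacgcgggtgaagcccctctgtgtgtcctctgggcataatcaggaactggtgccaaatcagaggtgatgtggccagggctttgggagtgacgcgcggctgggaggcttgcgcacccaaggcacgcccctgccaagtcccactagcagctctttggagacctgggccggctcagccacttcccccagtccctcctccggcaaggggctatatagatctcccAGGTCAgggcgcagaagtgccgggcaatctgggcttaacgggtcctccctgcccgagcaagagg
Adipoq: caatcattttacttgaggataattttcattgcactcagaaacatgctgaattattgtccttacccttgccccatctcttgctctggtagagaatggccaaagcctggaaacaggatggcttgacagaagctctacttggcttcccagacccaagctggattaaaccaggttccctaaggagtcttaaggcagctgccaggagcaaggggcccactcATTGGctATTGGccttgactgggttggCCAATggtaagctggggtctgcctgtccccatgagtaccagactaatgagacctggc
Adig: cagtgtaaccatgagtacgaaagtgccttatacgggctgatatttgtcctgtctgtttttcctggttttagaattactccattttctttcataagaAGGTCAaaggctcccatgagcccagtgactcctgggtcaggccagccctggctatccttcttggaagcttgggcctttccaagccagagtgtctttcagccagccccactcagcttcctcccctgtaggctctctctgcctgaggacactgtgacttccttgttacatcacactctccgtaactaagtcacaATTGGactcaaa
Ucp1 held AGGTCA at position -14 from the start and Adig at position -154, while Adipoq held no AGGTCA and 3 CCAAT boxes at positions -34, -27 and -7. AGGTCA is in 16.3% of the 32817 windows of the table, TATAAA in 13.6% and CCAAT in 37.4%. Pparg held AGGTCA in 2 of its 3 windows. The windows of Plin1, Cidec and Cfd held none of the 3 motifs. The DR1 element, which is AGGTCA repeated after 1 base of any kind and so contains the half-site, and the palindrome TTGCGCAA of C/EBP factors were in none of the 10 windows and in 0.0396% and 0.183% of all windows. Such matches are letters in a window and do not show that a factor binds there.

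Normal tissue of exposed mice was first compared with thyroid of non-exposed mice. All 10 genes had negative log2 fold changes, and none passed an adjusted p of 0.05, where 0.0277% of 14447 tested genes did. Ucp1 was at -2.85 (SE 0.74, adjusted p = 0.165 in the quasi-likelihood test of edgeR), with 8 of 9 NT libraries below the NCT median. Cidea was at -2.72 (SE 0.72, adjusted p = 0.171), with 9 of 9 below. Of the general genes, Fabp4 at -2.04 (SE 0.52, adjusted p = 0.161) and Adig at -1.92 (SE 0.41, adjusted p = 0.0850) were lowest.

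The other general genes lay nearer to 0. Plin1 was at -1.55, Cidec at -1.48, Adipoq at -1.25, Pparg at -1.24 and Lpl at -1.01, with adjusted p between 0.149 and 0.298. Cfd was at -0.64 (SE 0.38, adjusted p = 0.541), with 5 of 9 NT libraries below the NCT median. The median of the brown pair was -2.78 and that of the 8 general genes -1.36, beside 0.01 for all genes tested. At an unadjusted p under 0.05, 2 of 2 brown and 7 of 8 general genes were lower, where 5.98% of all genes were.

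Without NCT replicates 6 and 9 none of the 10 passed and all 10 kept the negative sign. Ucp1 was then at -2.095, Cidea at -1.36, Adig at -1.675, Fabp4 at -1.498 and Plin1 at -1.002. Pparg was at -0.91, Cidec at -0.84, Adipoq at -0.68, Lpl at -0.55 and Cfd at -0.33. In females alone Cidea was at -1.41 and Ucp1 at -1.99. Under the Wald test of DESeq2, 5 of the 10 passed, namely Adig (adjusted p = 0.000936), Lpl (0.00384), Ucp1 (0.00546), Cidea (0.00615) and Fabp4 (0.00733). Over all alternatives the adjusted p ran from 0.000936 to 0.489 for Adig, from 0.00384 to 0.489 for Lpl, from 0.00546 to 0.551 for Ucp1, from 0.00615 to 0.567 for Cidea and from 0.00733 to 0.564 for Fabp4.

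Lesions were next compared with thyroid of non-exposed mice. Adig fell in PL, from 9.16 ± 5.97 to 2.32 ± 2.11 CPM (SD, n = 9 each), with 9 of 9 lesions below the NCT median (log2 fold change -1.98, SE 0.59, adjusted p = 0.0340). It was the 1 gene of the 10 that passed, where 10.1% of 14234 tested genes passed and 4.62% passed as lower. Lpl was at -1.11 (SE 0.35, adjusted p = 0.05001), just short of passing. Fabp4 was at -2.01 (SE 0.64, adjusted p = 0.0574) and Ucp1 at -2.72 (SE 0.87, adjusted p = 0.0576).

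Cidea was at -2.50 (SE 0.90, adjusted p = 0.0918), Plin1 at -1.89, Cidec at -1.78 and Adipoq at -1.60, with adjusted p of 0.109 to 0.138 for the last 3. Cfd (-1.12, SE 0.64) and Pparg (-0.94, SE 0.54) both had an adjusted p of 0.313. The brown pair had a median of -2.61 and the 8 general genes one of -1.69, beside 0.00 for all genes tested. At an unadjusted p under 0.05, 2 of 2 brown and 6 of 8 general genes were lower, where 11.2% of all genes were. This comparison shares the NCT libraries with the one before, so the 2 sets of values are not independent of each other.

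The call of Adig ended in each fit that left out NCT replicate 2, 6 or 9 or PL replicate 1, 2 or 7 (adjusted p of 0.0548 to 0.078), and its adjusted p ran from 0.00401 to 0.189 over all alternatives. Mice 4 and 5 decided other members: without PL replicate 5, 7 of the 10 passed, with Ucp1 at -3.37 (adjusted p = 0.0201), and without PL replicate 4, 5 passed, with Pparg at -1.82 (adjusted p = 0.00366). The adjusted p ran from 0.00629 to 0.401 for Ucp1 and from 0.00366 to 0.802 for Pparg over all alternatives. In females alone none passed, with Ucp1 at -1.57 and Cidea at -0.73. Without NCT replicates 6 and 9 none passed either, with Ucp1 at -1.956, Adig at -1.72, Fabp4 at -1.45, Plin1 at -1.33 and Cidea at -1.14. Cidec was then at -1.13, Adipoq at -1.03, Cfd at -0.81, Lpl at -0.65 and Pparg at -0.60.

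**Figure D2:**
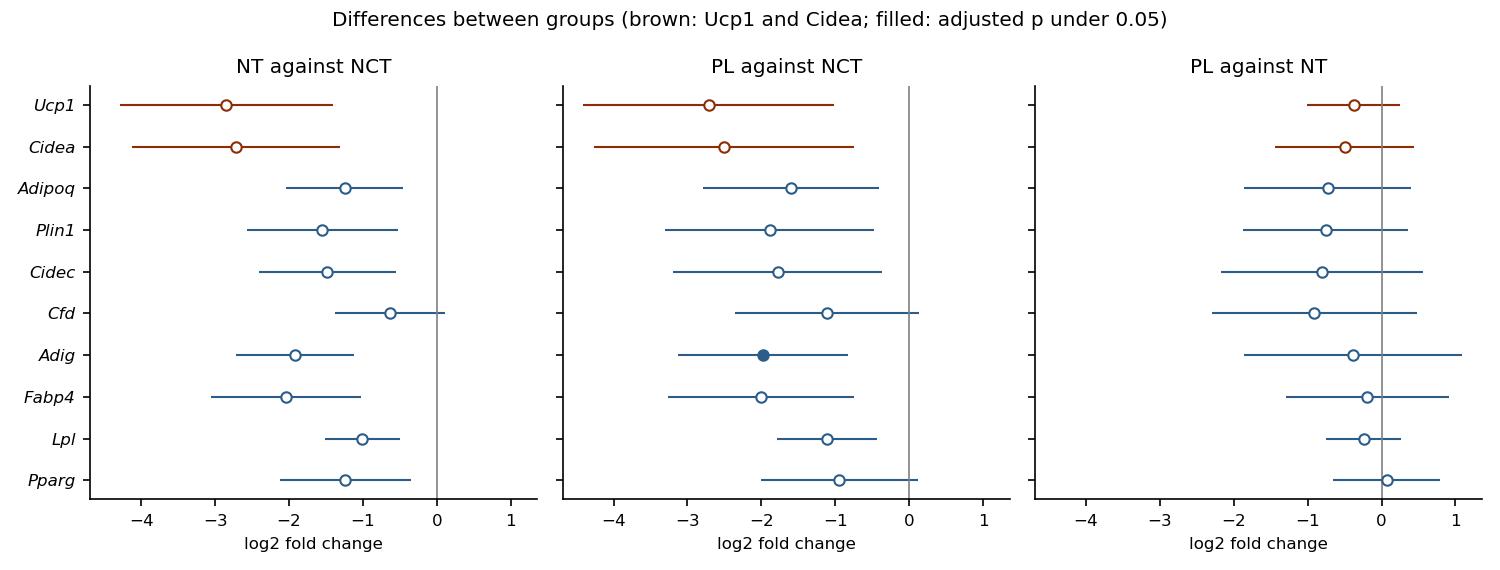
Log2 fold change of each of the 10 genes (horizontal axis) in the 3 comparisons, with bars of 1.96 SE on each side. Brown marks the brown fat genes and a filled point an adjusted p under 0.05. Adig in lesions against NCT (-1.98) is the only filled point, and Ucp1 and Cidea lie farthest from 0 in both comparisons with NCT.

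The lesion and the normal tissue of a mouse were compared last. None of the 10 genes passed in edgeR or with the Wald test of DESeq2, where 3.08% of 14461 tested genes passed in edgeR, and none had an unadjusted p under 0.05, where 17.6% of all genes did. The log2 fold changes ran from -0.91 for Cfd (SE 0.71, adjusted p = 0.569) to 0.07 for Pparg (SE 0.37, adjusted p = 0.951). Ucp1 was at -0.38 (SE 0.32, adjusted p = 0.599), lower in the lesion of 6 of 9 mice, with an interval of -1.002 to 0.25. The interval of Adig was the widest, from -1.86 to 1.08. The median was -0.44 for the brown pair and -0.56 for the general genes. The intervals of 8 of the 10, all but Lpl and Pparg, reach past a 2-fold lower level in the lesion.

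Mice differed in the direction of the pair. For Adipoq, mouse 9 had 54.0 CPM in NT and 1.92 CPM in PL, mouse 3 went from 50.4 to 7.26 CPM and mouse 6 from 27.9 to 45.3 CPM. For Ucp1, mouse 5 went from 58.1 to 125 CPM and mouse 8 from 12.7 to 1.91 CPM. All 3 males had lower levels in the lesion for Ucp1, Cidea, Adipoq, Plin1, Cidec, Lpl and Cfd. Of the 6 females, 3 were higher and 3 lower in the lesion for Ucp1, 4 higher and 2 lower for Adipoq, and 5 higher and 1 lower for Lpl. The interaction of sex and lesion was -1.72 (SE 0.47, males minus females) for Ucp1 and -2.71 (SE 0.56) for Cidea, with an adjusted p of 0.9998 for both in edgeR. No gene of 14461 passed that test in edgeR, while 401 genes, with Ucp1 and Cidea among them, were below an unadjusted threshold of 0.05. In PL against NCT the interaction with sex was -4.06 (SE 1.66) for Ucp1 and -5.25 (SE 1.60) for Cidea. Their adjusted p in edgeR were 0.9145 and 0.7087. No gene of 14234 passed there, while 730 were below the unadjusted threshold. In NT against NCT it was -2.15 for Ucp1 and -2.51 for Cidea (adjusted p = 0.9996 for both in edgeR).

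Brown transcripts were then set against general ones within each library. The sum of Ucp1 and Cidea divided by the sum of the 8 general genes had a median of 0.139 in NCT (range 0.0540 to 0.329), 0.0434 in NT (0.0141 to 0.162) and 0.0386 in PL (0.0147 to 0.174). Ratios of such sums are read between libraries only, and no p is given for them because the genes were chosen with results known. The NCT median lay above 8 of 9 NT and 8 of 9 PL libraries, yet the lowest NCT library, replicate 3 at 0.0540, lay within the range of both other groups. Without NCT replicates 6 and 9 the NCT median was 0.115. Lpl and Fabp4 made up most of the sum of the 8 genes, 52.0% to 92.5% of it in PL. Whether their transcripts came from fat cells alone was not tested.

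Ucp1 per Adipoq had its lowest, median and highest values at 1.19, 2.32 and 3.46 in NCT. In NT they were 0.0482, 0.627 and 2.37 and in PL 0.125, 0.731 and 1.74. NCT had the highest median on both measures, 1.85 here without its replicates 6 and 9, while the PL median lay above that of NT for Ucp1 per Adipoq and below it for the 8 genes. NT replicates 9 and 3 were lowest, at 0.0482 and 0.112, and both held Adipoq near the NCT level (54.0 and 50.4 CPM) with Ucp1 at 2.61 and 5.66 CPM. The 2 libraries thus held Adipoq with little Ucp1. The other brown gene, Cidea, was at 11.4 CPM in NT replicate 9 and 6.93 CPM in NT replicate 3, against an NT median of 11.4 CPM. NT replicate 9 is also among the libraries with Pth over 2000 CPM, and NT replicate 3 is not. With only Adipoq, Plin1, Cidec and Adig as the general genes, the medians of the brown ratio were 1.20, 0.579 and 0.703 in NCT, NT and PL. The 8-gene and 4-gene ratios placed single lesions differently. PL replicate 7, with Lpl at 223 CPM and Adipoq at 4.79 CPM, was at 0.0315 with 8 genes and at 0.946 with 4. PL replicate 9 was at 0.0172 and 0.763, with Lpl at 99.3 CPM and Adipoq at 1.92 CPM.

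**Figure D3:**
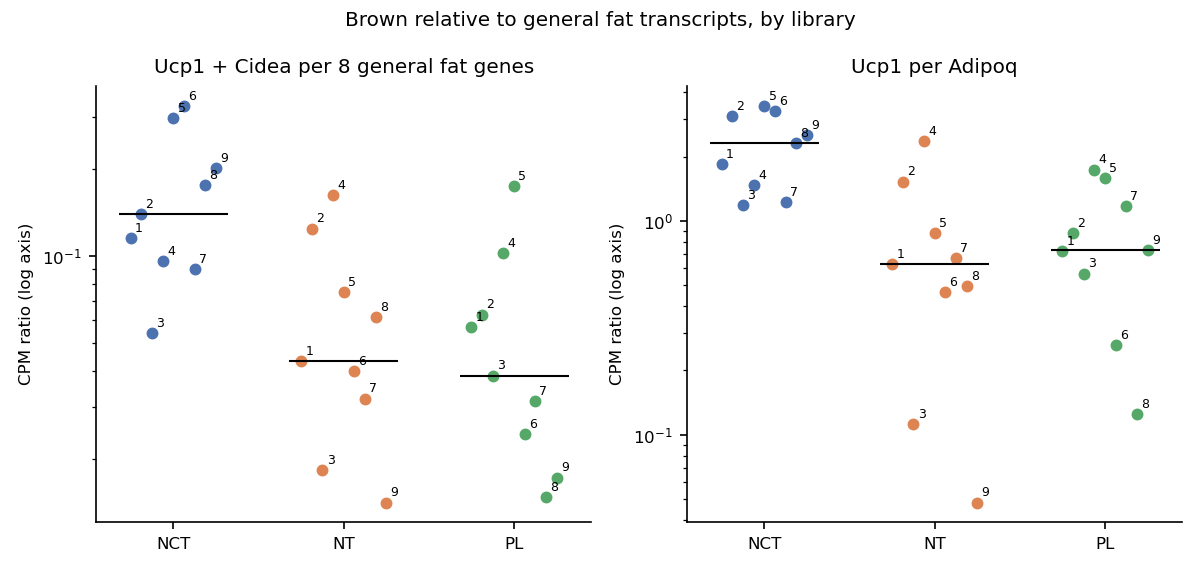
Brown relative to general fat transcripts in each library (vertical log axes, ratio of CPM), as Ucp1 plus Cidea per 8 general genes on the left and Ucp1 per Adipoq on the right. Numbers are replicates and bars are medians, at 2.32 in NCT, 0.627 in NT and 0.731 in PL on the right. NT replicates 9 and 3 lie lowest on the right and the NCT points lie at 1.19 and above.

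Whether brown and general genes moved together from library to library was examined within each group over 9 libraries, as Pearson's r of log2 CPM with exact permutation tests, two-sided and adjusted over 11 relations. Ucp1 and Cidea went together in NCT (r = 0.943, Spearman's rho = 0.967, exact adjusted p = 0.000697 for r), in NT (r = 0.807, rho = 0.683, exact adjusted p = 0.0133) and in PL (r = 0.947, rho = 0.983, exact adjusted p = 0.000485). The rho in NT had an exact adjusted p of 0.0692. Without the 2 libraries farthest from the median, r was 0.879, 0.510 and 0.822. Adipoq and Plin1, both general, had r of 0.926 in NCT, 0.848 in NT and 0.963 in PL, with exact adjusted p of 0.00348, 0.00611 and 0.000364 and rho of 0.867, 0.933 and 0.933.

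Ucp1 and Adipoq, the pair that crosses the 2 kinds of gene, had r of 0.877 in NCT (rho = 0.633, exact adjusted p = 0.00348 for r and 0.0929 for rho) and 0.850 in PL (rho = 0.883, exact adjusted p = 0.00611 for r). In NT r was 0.226 (rho = 0.133, exact p = 0.554, adjusted p = 0.609). Without the 2 libraries farthest from the median of Ucp1, r was 0.583 in NCT, 0.723 in PL and -0.28 in NT, where replicates 4 and 5 were left out. With a prior count of 0.5 or with DESeq2 size factors the 2 farthest NT libraries were replicates 4 and 9, and r without them was 0.475 and 0.478. The NCT relation thus rests in part on replicates 6 and 9. The difference between the correlations was not tested, and the libraries of a number series among the mouse numbers were too few for values within each.

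**Figure D4:**
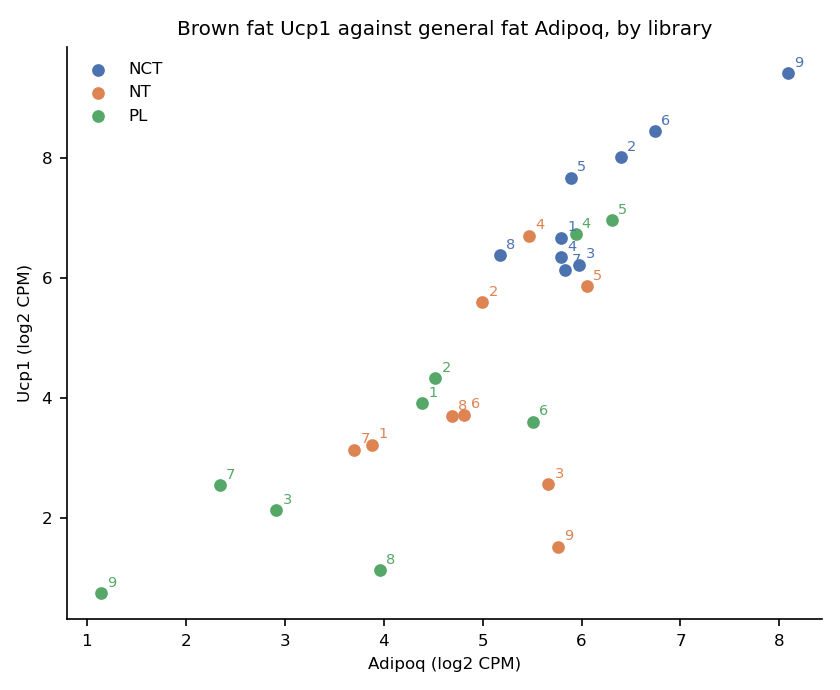
Ucp1 against Adipoq in the 27 libraries (log2 CPM on both axes), coloured by group and numbered by replicate. NT replicates 3 and 9 lie apart at the lower right, with 5.66 and 2.61 CPM of Ucp1, and NCT replicate 9 at the upper right with 684 CPM.

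Mice with much Ucp1 in the normal tissue also had much of it in the lesion. Over the 9 pairs r was 0.881 (rho = 0.850, exact adjusted p = 0.00348 for r and 0.00954 for rho), and r was 0.709 without mice 4 and 5. The levels of mouse 4 were 104 CPM in NT and 106 CPM in PL. Adipoq gave r = 0.166 (rho = 0.25, exact p = 0.666, adjusted p = 0.666) and r = -0.11 without mice 1 and 7. The difference between the relations of the 2 genes was not tested.

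**Figure D5:**
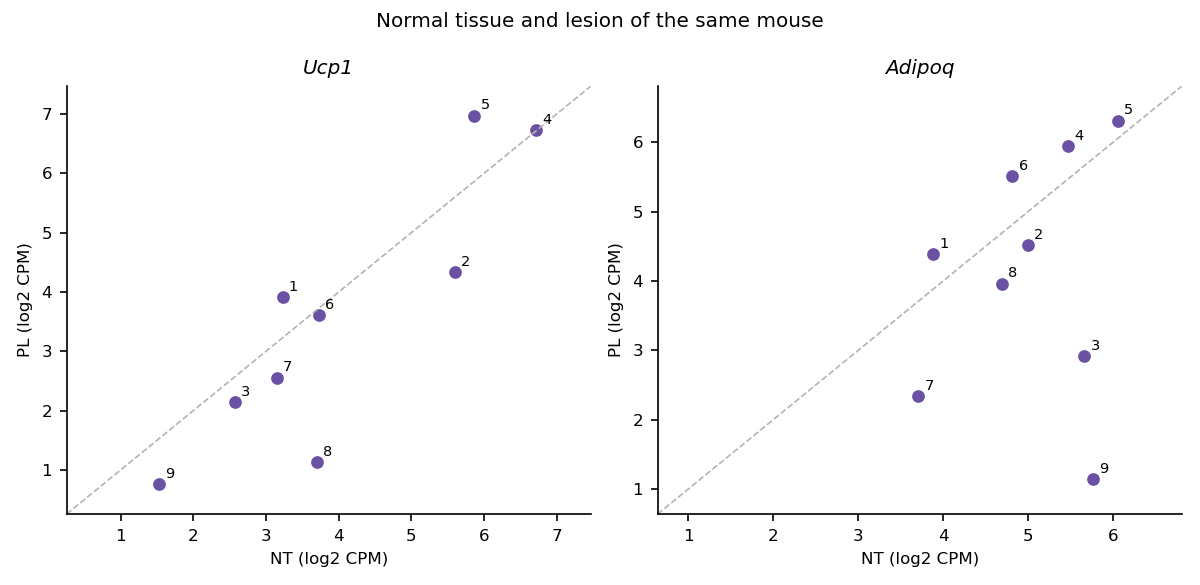
Level in the lesion (vertical axis) against level in the normal tissue of the same mouse (horizontal axis), both in log2 CPM, for Ucp1 on the left and Adipoq on the right, with the dashed line marking equal levels. Ucp1 in the lesion rose with Ucp1 in the normal tissue (r = 0.881), with 6 of 9 mice below the line. For Adipoq, mice 3 and 9 lie far below the line.

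The 10 genes were compared with each other and with all genes by the correlation of log2 CPM after centring on the group means, over the 27 libraries, as a description without a test. Within the set, Adipoq was most like Cidec and Cfd (r = 0.952 each), then Plin1 (r = 0.932). Ucp1 was most like Cidea (r = 0.883), and its r with the 8 general genes ran from 0.285 for Pparg to 0.766 for Plin1. Pparg stood apart from most others, with its highest r at 0.763 for Fabp4. These values share the libraries and the depth of each library, and NCT replicate 9 and PL replicate 9 are at the ends of most of them.

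Of 12716 genes ranked, those most like Ucp1 were Cox8b (r = 0.833), a cytochrome oxidase subunit of heart and brown fat, Slc36a2 (0.827), an amino acid transporter used as a brown fat marker, Otop1 (0.822), a proton channel, and Acacb (0.822), the mitochondrial acetyl-CoA carboxylase. Cox7a1 (0.813), Angptl4 (0.808), Cpt2 (0.806) and Clstn3 (0.804) came next. Those most like Adipoq were Car3 (r = 0.973), a carbonic anhydrase abundant in fat, Plin4 (0.923), a droplet coat protein, Mrap (0.908), an accessory protein of melanocortin receptors, and Dcn (0.907), the matrix proteoglycan decorin. Cox8b (0.903), Scn7a (0.869), Aoc3 (0.858) and Slc36a2 (0.854) followed. Cox8b and Slc36a2 were thus closer to Adipoq than to Ucp1 by this measure.

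Further genes of brown fat and heat production were counted from a list of 20, of which Gyk was not found and 14 were tested against NCT. In PL 7 of 14 fell, where 4.62% of all genes passed as lower, and none rose, with a list median of -1.64. Kcnk3, a potassium channel, fell from 32.9 ± 24.6 CPM in NCT to 5.04 ± 4.70 CPM in PL (log2 fold change -2.71, adjusted p = 0.00761). Otop1 was at -3.05 and Ppara, the receptor that drives fatty acid oxidation, at -1.82, each with 9 of 9 lesions below the NCT median. Otop1 went from 7.32 ± 9.43 CPM in NCT to 0.86 ± 1.11 CPM in PL. It passed the filter on low counts against NCT but not in lesions against paired tissue, so its call rests on its level in NCT. Pank1, a kinase of coenzyme A synthesis, was at -1.55, Cox7a1 at -1.90 and the brown fat regulators Ebf2 and Prdm16 at -1.12 and -0.40.

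In NT none of the 14 passed and 11 were lower at an unadjusted p under 0.05, where 5.98% of all genes were, with a median of -1.39. Otop1, with a mean of only 0.80 CPM in NT, was at -3.13 and Ppara at -2.22, both with an adjusted p of 0.114 in edgeR. Dio2, the deiodinase that activates thyroid hormone in brown fat and that thyroid also expresses, was at -0.35 in NT (adjusted p = 0.748). Between lesions and paired normal tissue 0 of 13 passed and 2 were lower at an unadjusted p under 0.05, where 8.76% of all genes were lower and 8.89% higher, namely Kcnk3 (-1.61, adjusted p = 0.122) and Ebf2 (-0.58, adjusted p = 0.202). Zic1, a marker of brown fat between the shoulder blades, had a mean of 0 CPM in NCT and NT and 0.033 CPM in PL.

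The PL count for this list moved with single libraries, from 3 to 8 over 18 fits that left out 1. It was 3 without NCT replicate 6 and 4 without NCT replicate 2 or 9 or PL replicate 1, 2, 3 or 8. It was 1 without both NCT replicates 6 and 9 (list median -0.87) and 0 in females alone (-0.66). The NT median of the list was -0.75 without these 2 libraries and -0.50 in females.

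Of 15 tested genes of fat cells in general outside the set, 4 fell in PL against NCT, where 4.62% of all genes passed as lower, with a list median of -1.42. Slc2a4, the insulin-regulated glucose transporter, fell from 22.4 ± 18.1 to 4.44 ± 3.79 CPM (log2 fold change -2.33, adjusted p = 0.0103), Rbp4, a retinol carrier, had -2.45 and Gpd1, which makes glycerol phosphate, -1.36. Cav1, a caveola protein that endothelium also expresses, was at -0.93 and in NT was at 0.31 (adjusted p = 0.672). None passed in NT, where 13 of 15 were lower at an unadjusted p under 0.05 against 5.98% of all genes and the median was -1.16. None passed between lesions and paired tissue, with 1 higher and 2 lower at an unadjusted p under 0.05, where 8.89% and 8.76% of all genes were. In edgeR these were Acsl1 (0.35, adjusted p = 0.127), Cav1 (-1.29, adjusted p = 0.0533) and Slc2a4 (-1.04, adjusted p = 0.248). The PL count was 2 without NCT replicate 2, 6 or 9 or PL replicate 1, 2, 3, 6, 7 or 8, 8 without PL replicate 4, 7 without PL replicate 5, 1 without both NCT replicates 6 and 9 and 0 in females alone. Without these 2 libraries the median was -0.55 in NT and -0.92 in PL, and in females it was -0.61 in NT and -0.56 in PL.

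Genes that build fatty acids and triglyceride were the 1 list with a call in NT. Fasn, which makes palmitate, was at 313 ± 126 CPM in NCT and fell to 131 ± 26.4 CPM in the exposed normal tissue (log2 fold change -1.25, adjusted p = 0.0165), and no NT library reached the lowest NCT library. Agpat2, an acyltransferase of triglyceride synthesis, fell from 60.9 ± 31.5 to 22.8 ± 7.38 CPM (-1.40, adjusted p = 0.0165). They made 2 of the 17 tested, beside 0.0208% of all genes that passed as lower. The count was 0 without NT replicate 4 or 6, 1 without NT replicate 2, 4 without NCT replicate 7 or 8 0 without the libraries over 2000 CPM of Pth, 1 in females alone and 3 without NCT replicates 6 and 9. The list median was -0.62, and -0.43 without these 2 libraries.

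In PL 6 of 17 fell, beside 4.62% of all genes, with a list median of -0.44. They were Fasn (-1.09), Agpat2 (-1.40), Lpin1, a phosphatidate phosphatase (-1.37), Acly, which supplies cytosolic acetyl-CoA (-0.73), Thrsp, a thyroid hormone responsive lipogenic gene (-2.35), and the desaturase gene Scd1 (-2.09), with adjusted p between 0.00146 and 0.00620. All 6 had 9 of 9 lesions below the NCT median, and Fasn, Agpat2, Lpin1 and Acly are not confined to fat cells. The count was 6 without NCT replicates 6 and 9 (median -0.30) and 4 in females alone (-0.28). Between lesions and paired tissue 0 of 17 passed, with Dgat2 at 0.94 (adjusted p = 0.0716) and Scd1 at -0.74 (adjusted p = 0.136), and 4 were higher and 2 lower at an unadjusted p under 0.05, beside 8.89% and 8.76% of all genes.

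Of 10 genes of lipid droplets and lipolysis, Pnpla2, the first lipase of triglyceride breakdown, fell in PL against NCT (-0.86, adjusted p = 0.0485), 1 of 10 where 4.62% of all genes passed as lower, a call that ended in 12 of the 18 fits that left out 1 library. Lipe, hormone-sensitive lipase, was at -1.26 (adjusted p = 0.0590). None passed in NT or between lesions and paired tissue. Of 12 regulators of fat cell formation, Stat5b and Ebf1 fell in PL against NCT (-0.81 and -0.83), 2 of 12 beside the same 4.62%, and Cebpd, a transcription factor induced by stress and hormones, rose, where 5.45% of all genes passed as higher. It went from 28.6 ± 16.1 to 94.7 ± 58.8 CPM (1.71, adjusted p = 0.00884). Cebpd was at 1.18 in lesions against paired tissue (adjusted p = 0.0503), higher in 9 of 9 mice. Cebpa was at -0.36 in NT and -0.35 in PL against NCT, neither passing.

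Transcripts of the mitochondrial genome were counted beside the fat genes. Of 13, 6 fell in PL against NCT, where 4.62% of all genes passed as lower (median -0.55). None passed in NT, where 11 were lower at an unadjusted p under 0.05 against 5.98% of all genes (median -0.53). Their summed level ran from 58492 to 155510 CPM in NCT, 47859 to 93675 CPM in NT and 40794 to 90502 CPM in PL. Without NCT replicates 6 and 9, 2 fell in PL (median -0.38, and -0.34 in NT), 1 fell in females alone and 0 in the mice of 3 shared number series. Whether fat cells or thyroid cells account for this was not tested.

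Markers of other cell types were measured in the same comparisons. C cell markers, from the calcitonin-making cells of the thyroid, had 0 of 8 passing in NT against NCT and a median of -1.14. Of them 4 were lower at an unadjusted p under 0.05, where 5.98% of all genes were. Their sums ran from 1354 to 8553 CPM in NCT, 447 to 16949 CPM in NT and 77.6 to 18456 CPM in PL, with medians of 3462, 1536 and 121 CPM. The highest libraries were NCT replicate 8, NT replicate 7 and PL replicate 2, each among those over 2000 CPM of Pth. The part of parathyroid tissue in these sums was not tested. Airway and squamous markers had 0 of 8 passing and a median of 0.36, with sums of 353 to 4757 CPM in NCT, 120 to 6443 CPM in NT and 26.2 to 466.02 CPM in PL. Parathyroid markers had 0 of 3 passing (median 1.14) and skeletal muscle markers 0 of 8 (median 0.87).

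Endothelial markers had 0 of 10 passing in NT against NCT and a median of -0.01, with summed levels of 791 to 1165 CPM in NCT and 748 to 1339 CPM in NT. Fibroblast and precursor markers had 0 of 10 passing, a median of -0.06 and sums of 1937 to 3194 CPM in NCT and 1456 to 3732 CPM in NT. Macrophage markers had 0 of 10 passing and a median of 0.43, with sums of 760 to 17190 CPM in NCT, where replicate 9 is the top through Lyz2, and 652 to 2604 CPM in NT. Follicular thyroid markers had 0 of 10 passing and a median of 0.01, with Tg at -0.55 (adjusted p = 0.254), Slc5a5, the iodide importer, at -0.07 and Tshr, the thyrotropin receptor, at 0.32. At an unadjusted p under 0.05, 2 follicular markers were lower and 0 higher, where 5.98% of all genes were lower. At that threshold 3 macrophage markers and 1 fibroblast and precursor marker were higher and 0 of either kind lower. The sum of 5 brown fat markers ran from 124 to 1409 CPM in NCT, from 18.9 to 200 CPM in NT and from 2.81 to 275 CPM in PL.

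The same markers were counted in lesions. Of the C cell markers 5 of 7 fell against NCT (median -4.77) and 5 of 7 against paired tissue (median -3.37), where 4.62% and 1.31% of all genes passed as lower. Of the airway and squamous markers 6 of 7 fell against NCT (median -3.41) and 4 of 8 against paired tissue (median -2.62). The last count was 0 without mouse 1, 2, 3, 7 or 8 and 1 without mouse 4. Parathyroid markers had 0 of 3 and 0 of 2 passing in these comparisons, and skeletal muscle markers 0 of 8 and 0 of 2. Of 10 follicular thyroid markers 3 rose against NCT, where 5.45% of all genes did, with Tshr at 1.57, and Tg alone fell (-0.77, adjusted p = 0.0210 in edgeR). Against paired tissue Tshr alone passed (1.40), where 3.08% of all genes did. Macrophage markers had 0 of 10 passing against NCT and 1 of 10 lower against paired tissue, a call that ended in 7 of 9 fits that left out 1 mouse.

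In lesions against paired tissue fibroblast and precursor markers had a median of -0.73 with 0 of 9 passing, and their sums ran from 670 to 3383 CPM in PL. Endothelial markers had a median of -0.35 with 0 of 10 passing. At an unadjusted p under 0.05, 5 of 9 fibroblast and precursor markers and 5 of 10 endothelial markers were lower, where 8.76% of all genes were. None of either list was higher at that threshold, and all tested markers of both lists had negative log2 fold changes. Against NCT, 3 of 9 fibroblast and precursor markers and 1 of 10 endothelial markers fell in PL, where 4.62% of all genes passed as lower, and Dcn, which was among the genes most like Adipoq, fell as well (-1.25, adjusted p = 0.0426). The part of tissue of any of these kinds in the fat gene levels was not tested. Without the libraries over 2000 CPM of Pth, Ucp1 was at -2.68 in NT and -2.77 in PL against NCT.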

How the data were processed

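RNA was counted in 27 laser-captured mouse thyroid libraries made with a QuantSeq 3′ kit, per the labels' protocols. The authors deposited raw counts per gene, not normalized. The submitters' processing notes list STAR, featureCounts, DESeq2 and GRCm38, with no versions. Annotation release, strand setting and molecular identifiers: not given in the sources used here, so reads of overlapping genes on opposite strands may not have been told apart. Rows were named by identifier in GENCODE M21 (54409 of 54532 rows; the 123 others held 0.0251% of counts).

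Each comparison was run with edgeR 4.0.16 (R 4.3.3) and its quasi-likelihood F test on the counts of its 2 groups, with TMM factors, robust dispersion, filterByExpr (minimum count 10) and a Benjamini-Hochberg threshold of 0.05, after the code was tested on simulated data. PL against NT kept the mouse as a block. The pairing rests on the mouse numbers, which mark the same animal. Deviations of the pairs from the group means correlated at -0.00646 to 0.233, above 0.1 in 6 of 9. The SE, an approximation, is the size of the log2 fold change over the root of F, and intervals are 1.96 SE. CPM use TMM factors over 27 libraries, and log2 CPM a prior count of 2. Totals of 2923851 to 14148601 counts limit precision for genes of few counts. No 2 libraries of a group matched within sampling noise (108 pairs, lowest chi-square per degree of freedom 12.3).

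The 10 genes and all lists were chosen with earlier results of these data known. Named were the 10 genes, Tg, Slc5a5, Tshr, Fasn and Agpat2, and the 8 genes most like Ucp1 and the 8 most like Adipoq, predicted genes left out. The plan also covered the 4 genes of each list with the smallest p in a comparison, passing or not, but not all of these were named. Other called members of a list, Zic1, Dio2, Pth, Lipf and Lyz2 were named after their values were seen. Marker lists of other cell types were measured in all 3 comparisons. Alternatives were other scaling factors, the Wald test of DESeq2 1.42.0, no filter or a stricter one, removal of the 10 most abundant genes, females only, mice of 3 shared number series, sex as a covariate, all 27 libraries in 1 fit, no block and each library or pair left out. Fits without libraries over 2000 CPM of Pth and without NCT replicates 6 and 9 were added after seeing the data. The title and the mouse label of NCT replicate 4 give different mouse numbers. Its number series was read from the label, and it was not in the fits of shared series. By the number in the title it would share a series with NT and PL replicate 1.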

Additional observations from a re-analysis of the deposited data

Results flagged for a closer look

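The 36 sets of 9 values tested were in CPM rather than log2 CPM, and they share libraries. The number that chance alone would set apart was therefore not estimated. Of these sets, 9 held a library far from the rest of its group. NCT replicate 9 accounts for 6 of them. Its Ucp1 was at 684 CPM against 348 in the next library, its Adipoq at 271 against 107, its Fabp4 at 2842 against 1217, its Plin1 at 261 against 103, its Cidec at 132 against 60.1 and its Cfd at 705 against 405. The same library has the fewest counts, the Lipf and Lyz2 transcripts and a mitochondrial share of 20.02%, and their part was not tested. In PL, replicate 4 stood apart with Fabp4 at 865 CPM against 319 and Pparg at 33.3 against 6.09, and replicate 5 with Cidec at 49.1 against 23.2.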

How the results depend on the processing

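All 10 log2 fold changes stayed negative in each of 30 alternatives of NT against NCT and of PL against NCT. Genes passing in NT against NCT numbered 134 with DESeq2's Wald test, 15 with no filter, 1 in females, 2 in the number series, 0 without libraries over 2000 CPM of Pth and 0 to 12 with 1 library left out (0 without NT replicate 4 or 6, 1 without NT replicate 2, 12 without NCT replicate 7, 9 without NCT replicate 8). Of the 10 genes 5 passed with the Wald test, 1 (Adig) with no filter and 0 to 0 with 1 library left out. In PL against NCT 450 genes passed in females, 423 in the number series, 937 without NCT replicates 6 and 9 and 1126 to 1655 with 1 library left out. Of the 10, 7 passed with the Wald test, 5 in a fit of all 27 libraries, 2 with the stricter filter and 2 without the 10 most abundant genes, and 0 with no filter, in females, in the number series, without the Pth libraries and without NCT replicates 6 and 9. With 1 library left out 0 to 7 passed: 0 without NCT replicate 2, 6 or 9 or PL replicate 1, 2 or 7, 2 without NCT replicate 4, 3 without NCT replicate 8, 5 without PL replicate 4 and 7 without PL replicate 5.

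In PL against NT 1285 genes passed with the Wald test, 832 with no filter, 6 in females, 95 without mice with a Pth library and 137 to 529 with 1 mouse left out (257, 209, 240, 234 and 137 without mouse 2, 3, 4, 7 and 8). Without the mouse block 402 passed, none of the 10 among them, and the block changed no other call of the 10. Signs that changed in this comparison, where none of the 10 passed, were those of Ucp1 (0.15 in females, 0.14 without the block), Cidea (0.35 in females, 0.22 without the block, 0.061 without Pth mice), Fabp4 (0.15 in females, 0.040 without the block, 0.26 without Pth mice, 0.17 without replicate 9, range -0.44 to 0.17 with 1 mouse left out), Lpl (0.0048 in females), Adig (0.56 without Pth mice, 0.055 without replicate 9, range -0.76 to 0.055) and Pparg (-0.15 without replicate 4, -0.10 without replicate 6, range -0.15 to 0.32). The correlations that changed sign without 2 libraries were Ucp1 with Adipoq in NT (-0.28, but 0.475 with a prior count of 0.5 and 0.478 with DESeq2 size factors, where other libraries were farthest) and Adipoq between the tissues of a mouse (-0.11). With 4 general genes the median brown ratios were 1.20, 0.579 and 0.703 in NCT, NT and PL, so that the order of NT and PL turned. The cause of these changes was not tested, apart from fewer libraries in the fits that leave some out. Adig and Pparg, on 0 to 175 counts a library, are limited by depth.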
